A study of Ovis aries with 14 samples.

Results

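Of 27054 gene identifiers listed for lamb lung, 4198 had no count in any library and 13364 lay within limits on mean level. In 2 of the 13364, all lungs after respiratory support were lower than all unsupported fetal and term lungs and further limits were met. These limits were on the size of the difference and on at least 1 term lung being at or above the lowest fetal one. These 2 genes were ENSOARG00000003206 and ENSOARG00000014616. In both the mean of the term lungs was near the fetal mean, which the limits in part required. The 14 lambs (Ovis aries) gave 1 library each of RNA from the right lower lobe. Preterm lambs had 3 days of support and are labelled gd134: 3 were intubated for invasive mechanical ventilation (IMV), and 3 breathed through a mask with noninvasive respiratory support (NRS). Lungs with treatment labelled as none came from fetuses labelled gd127, gd128 and gd131 (fetal start, n = 3), from fetuses labelled gd135, gd134 and gd136 (fetal end, n = 3) and from lambs labelled gd150 (term, n = 2). Each library is from an animal with its own identifier. The labels give no strain or sex and do not say whether the term lambs had breathed air.

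In late gestation the lung thins its tissue, begins to make surfactant and divides its saccules into alveoli, and sheep form many alveoli before birth. Preterm lambs kept on a ventilator for days are used as a model of bronchopulmonary dysplasia, the chronic lung disease of preterm infants, in which alveoli form poorly. Noninvasive support is given to spare the lung some of the stretch of ventilation through a tube. The genes described here were chosen because their level after support differed from that in the other states. In whole lobe tissue, fewer cells that hold a transcript and less of it per cell cannot be told apart.

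Library totals ran from 23267448 to 31586235 counts, and levels are given as CPM, counts scaled to 1000000 per library. The genes were chosen by these same values: a mean CPM from 2 to under 1000, all 6 supported libraries below all 8 others, a supported mean of at most 0.77 times the mean of the others, and at least 1 term library at or above the lowest fetal one. The level limits left 13364 genes. In 303 of these the supported libraries lay below all 6 fetal ones, but in 287 of the 303 at least 1 term library reached down to the supported range. The other 16 genes, 0.12% of those within the level limits, had all 6 supported libraries below all 8 others. A supported mean of at most 0.77 times the other mean was found in 706 of the 13364 genes, 5.28%, and in 3 of the 16. The lack of overlap already put the ratios of the 16 below 1, so these shares are not comparable. Of these 3 genes, 1 was left out because its term libraries were both below every fetal one. Since the supported libraries chose the genes, their levels against the other groups are a description and carry no test. The same holds for the term level against the fetal level, which the rule also used.

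**Figure D1:**
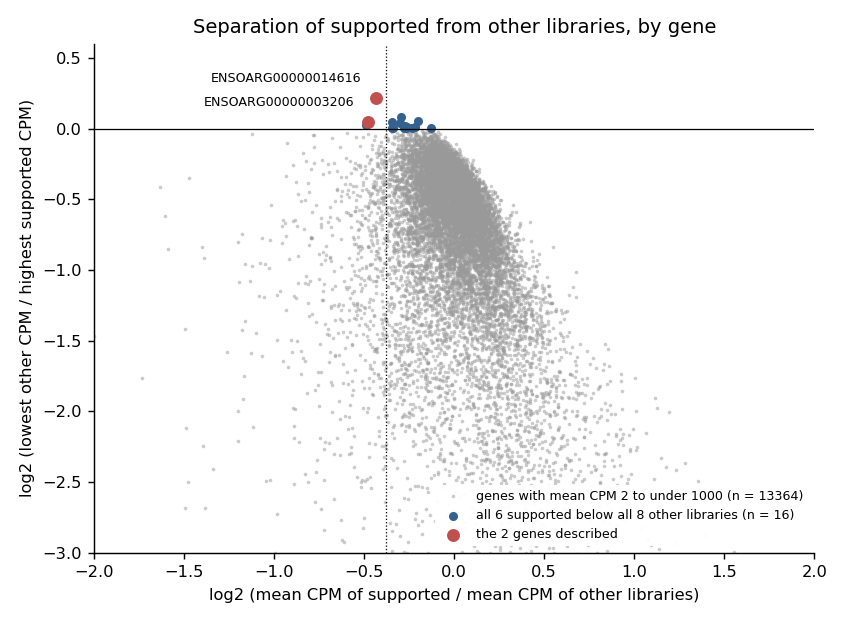
Each point is 1 gene with a mean CPM from 2 to under 1000; the x axis is the log2 ratio of mean CPM in supported to other libraries, with the limit of 0.77 dotted, and the y axis is the log2 ratio of the lowest other to the highest supported library, above 0 where the libraries do not overlap. The 16 genes above 0 are in blue or red, the 2 genes described here are red, and 484 genes beyond the axes are not drawn.

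ENSOARG00000014616 was the more evenly lowered gene. It stood at 22.4, 24.4 and 21.7 CPM in the IMV libraries (replicates 1, 2 and 3) and at 26.9, 26.6 and 25.1 CPM in the NRS libraries. The fetal start libraries had 33.6, 36.5 and 34.8 CPM, the fetal end libraries 33.1, 31.6 and 31.3 CPM, and the term libraries (replicates 2 and 3) 32.3 and 32.1 CPM. The 6 supported lungs were low and close together, and the 8 others were high and close together. The mean was 24.5 ± 2.13 CPM with support (SD, n = 6) and 33.2 ± 1.75 CPM without (SD, n = 8), so that the supported mean was 0.74 times the other. The highest supported library, NRS replicate 1, held 26.9 CPM with an exact 95% Poisson interval of 25.1 to 28.9, and the lowest other, fetal end replicate 3, held 31.3 CPM with an interval of 29.1 to 33.6. The intervals cover counting error only and did not overlap.

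ENSOARG00000003206 was about as much lower on average but much less even. It stood at 32.1, 48.2 and 54.7 CPM in the IMV libraries and at 51.8, 54.4 and 50.9 CPM in the NRS libraries. The fetal start libraries had 56.5, 69.98 and 84.6 CPM, the fetal end libraries 56.6, 65.6 and 71.0 CPM, and the term libraries 78.5 and 58.96 CPM. Most supported lungs lay just under the lowest fetal and term lungs, and IMV replicate 1 lay far under the rest. The mean was 48.7 ± 8.46 CPM with support (SD, n = 6) and 67.7 ± 10.3 CPM without (SD, n = 8), a ratio of 0.719. Without IMV replicate 1 the ratio was 0.768, just inside the limit of 0.77. The highest supported library, IMV replicate 3, had 54.7 CPM with a 95% Poisson interval of 52.0 to 57.5, and the lowest other, fetal start replicate 1, had 56.5 CPM with an interval of 53.7 to 59.4. These intervals overlap, so the order of these libraries, on which the choice of ENSOARG00000003206 rests, is within counting error at this depth.

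**Figure D2:**
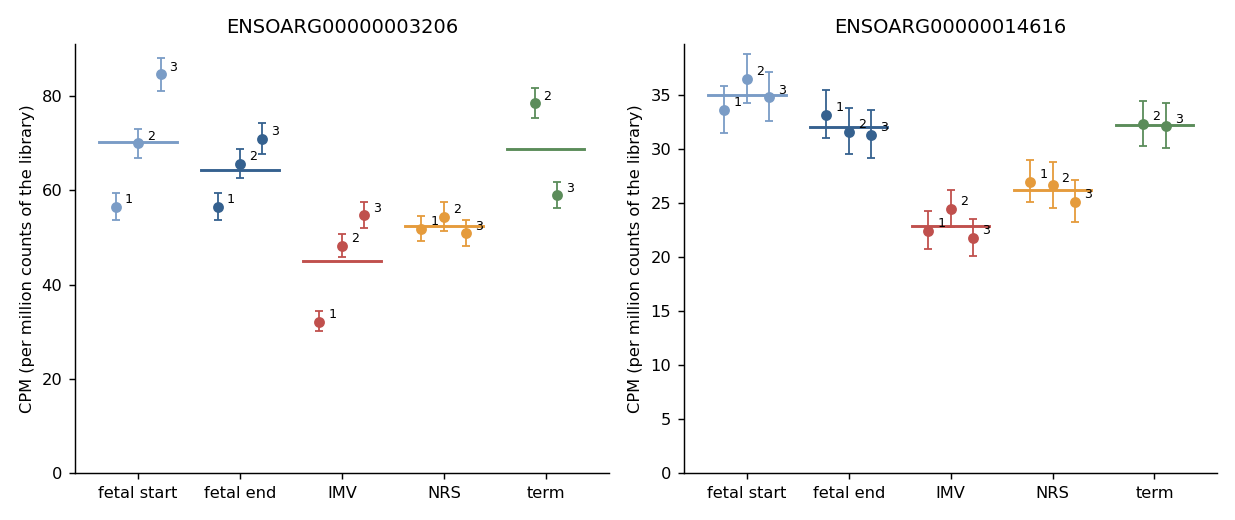
CPM of ENSOARG00000003206 (left) and ENSOARG00000014616 (right) in each library by group, with the replicate number beside each point, exact 95% Poisson intervals as bars and the group mean as a line. The supported libraries lie at 32.1 to 54.7 CPM against 56.5 to 84.6 CPM in the left panel, and at 21.7 to 26.9 CPM against 31.3 to 36.5 CPM in the right.

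From lowest to highest group mean, ENSOARG00000014616 ran 22.9 ± 1.40 CPM with IMV, 26.2 ± 0.97 with NRS, 32.01 ± 0.99 at fetal end (SD, n = 3 each), 32.2 ± 0.16 at term (SD, n = 2), and was highest at fetal start, 34.9 ± 1.44 (SD, n = 3). In this order the libraries of fetal end and term overlapped, and those of the other neighbouring groups did not. The share of all genes with a gap between term and fetal start was not counted. For ENSOARG00000003206 the order was 45.0 ± 11.6 CPM with IMV, 52.4 ± 1.83 with NRS, 64.4 ± 7.29 at fetal end (SD, n = 3 each), 68.7 ± 13.8 at term (SD, n = 2), again with fetal start highest at 70.4 ± 14.1 (SD, n = 3). Here the libraries of NRS and fetal end were the only neighbours that did not overlap. For both genes the rule fixed that gap in advance. Both genes had the same order of group means, but the rule itself placed IMV and NRS below the other groups. From fetal end to term the mean rose by 0.18 CPM for ENSOARG00000014616 and 4.34 CPM for ENSOARG00000003206, with overlap in both. From term to fetal start it rose by 2.75 CPM without overlap and 1.63 CPM with overlap. How many other genes share this order was not counted.

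Set against each unsupported group, the level after IMV was 28.6% lower than at fetal end, 34.6% lower than at fetal start and 29.0% lower than at term for ENSOARG00000014616. After NRS this gene was 18.1%, 24.95% and 18.5% lower than in the same groups. ENSOARG00000003206 was 30.1%, 36.0% and 34.5% lower after IMV and 18.7%, 25.6% and 23.8% lower after NRS. The term mean of ENSOARG00000003206 was 1.02 times the fetal mean, and that of ENSOARG00000014616 was 0.962 times the fetal mean. Animal identifiers also differ between groups: their last number is 17 or 18 with IMV and at fetal start, 18 with NRS and at term, and 19 at fetal end. Among the 8 libraries whose identifier ends in 18, the supported mean was 0.725 times the other for ENSOARG00000003206 and 0.74 times for ENSOARG00000014616, and the rule already fixed these ratios below 1.

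The spread between animals of a group was small for ENSOARG00000014616 and wide for ENSOARG00000003206. The coefficient of variation of ENSOARG00000014616 was 6.14% with IMV, 3.71% with NRS, 3.11% at fetal end, 4.13% at fetal start (n = 3 each) and 0.491% at term (n = 2). Its 606 to 1028 counts per library give a counting error of 3.12% to 4.06% on their own. The values for NRS and the fetal groups are close to this, that for IMV is higher and that for term is lower. With n = 3 or n = 2 such values are imprecise, and the excess with IMV was not tested. The pooled within-group SD of its log2(CPM + 0.5) was 0.059, and 0.793% of the 13364 genes had a smaller one. That of ENSOARG00000003206 was 0.26, with 64.9% of genes below it and a median over all of 0.20. The coefficient of variation of ENSOARG00000003206 was 25.8% with IMV, 3.49% with NRS, 11.3% at fetal end, 19.99% at fetal start (n = 3 each) and 20.1% at term (n = 2). Its 900 to 2312 counts per library give counting errors of 2.08% to 3.33%. A rule that asks for no overlap favours genes with little spread, so the low SD of ENSOARG00000014616 is partly a product of the choice.

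The rule pooled IMV and NRS and did not use the difference between them, so the type of support was tested. The test is not free of the choice, since the demand for no overlap used these same libraries. That demand favours genes with little spread, so SE and intervals may be too narrow. ENSOARG00000014616 had 87.2% of the NRS level after IMV, and all 3 IMV libraries were below all 3 NRS libraries. Its log2 fold change was -0.15 ± 0.08 (SE), with a 95% interval of -0.33 to 0.03 (edgeR quasi-likelihood F test, adjusted p = 0.539 by Benjamini-Hochberg over 17069 genes). An exact two-sided permutation test of its CPM gave p = 0.1, the smallest that 3 against 3 animals allow. Such a separation, with IMV below NRS, was seen in 13.4% of all genes tested, and the opposite in 6.51%. ENSOARG00000003206 had 85.9% of the NRS level after IMV, with overlapping groups and a log2 fold change of -0.18 ± 0.19 (SE, interval -0.59 to 0.24, edgeR adjusted p = 0.767). Its direction rested on 1 library: without IMV replicate 1 the log2 fold change was 0.0065 (edgeR adjusted p = 0.994). The direction also turned, to 0.105 (edgeR adjusted p = 0.982), with a term for identifiers ending in 17. Those identifiers are IMV replicates 1 and 2 and fetal start replicate 1, so that fit does not single out 1 library. Over all alternatives the adjusted p of ENSOARG00000003206 ran from 0.663 to 0.994. Neither gene passed, and edgeR called 0 of all genes (0%) at an adjusted p under 0.05, with 1854 at an unadjusted p under 0.05 and DESeq2 calling 81 higher and 50 lower. Each gene's interval allows a lower or a higher level after IMV than after NRS.

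Development in utero was tested in the same way, since the rule pooled the 6 fetal libraries. The same limit holds, as the demand for no overlap used these libraries too. At fetal end ENSOARG00000014616 had 91.6% of its fetal start level, and the 3 fetal end libraries were all below the 3 fetal start libraries. The log2 fold change was -0.15 ± 0.08 (SE, 95% interval -0.34 to 0.03, edgeR adjusted p = 0.716), and the exact two-sided permutation test gave p = 0.1, again the smallest possible. Fetal end lay below fetal start without overlap in 4.43% of the genes tested, and above it in 6.96%. ENSOARG00000003206 had 91.5% of its fetal start level at fetal end, with overlapping groups and a log2 fold change of -0.15 ± 0.19 (SE, interval -0.57 to 0.27, edgeR adjusted p = 0.9). By label its fetal levels were 56.5 CPM at gd127, 69.98 at gd128, 84.6 at gd131, 65.6 at gd134, 56.6 at gd135 and 71.0 at gd136, with no steady course. Neither gene passed, and 1 of the 17069 genes, 0.00586%, was called in edgeR, where DESeq2 called 84 higher and 38 lower. All fetal end identifiers end in 19 and no fetal start identifier does, so age and whatever the number stands for cannot be told apart.

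**Figure D3:**
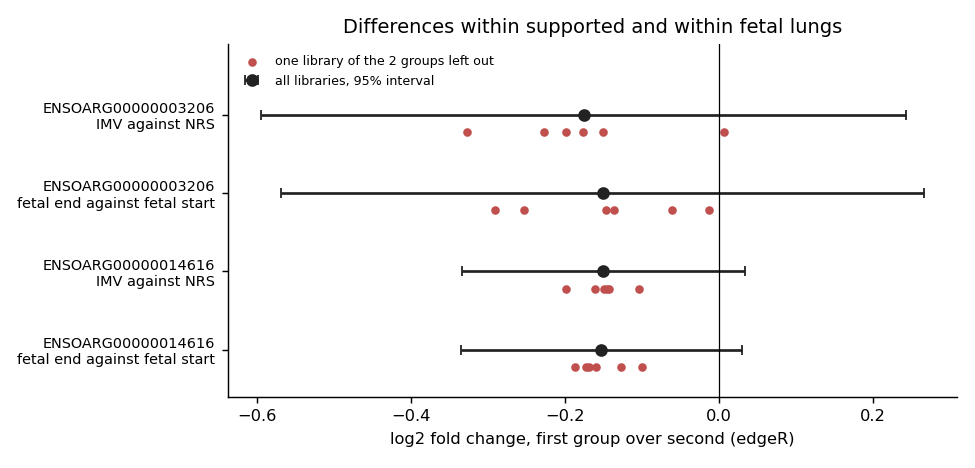
Log2 fold change of each gene in edgeR between the 2 kinds of support and between the 2 fetal groups (black, with 95% intervals), and its values with 1 library of the 2 groups left out (red). All 4 intervals include 0, and leaving out IMV replicate 1 moves ENSOARG00000003206 to 0.0065 for IMV against NRS.

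The genes nearest to the limits show how narrow the choice is. With the ratio limit set aside, 14 genes met the other conditions, and 12 of them had ratios from 0.788 to 0.915 with a median of 0.827. The first of these outside the limit, at a ratio of 0.788, had a highest supported level of 67.5 CPM against a lowest other level of 69.8 CPM. Just inside stood ENSOARG00000014616, at a ratio of 0.74 and with its lowest other library 16.2% above its highest supported one. For ENSOARG00000003206 that gap was 3.29%. The gene left out by its term level had a ratio of 0.712, with a term mean of 8.92 CPM and a fetal mean of 10.01 CPM. IMV replicate 1 was the lowest of the 6 supported libraries in 8 of the 14 genes, ENSOARG00000003206 among them, and in 22.7% of the 13364 genes.

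The number of genes that met the rule turned on single libraries. Leaving out a library loosens the rule's demand for no overlap, so more genes can meet it, and ENSOARG00000003206 and ENSOARG00000014616 cannot lose their separation that way. It was 25 without NRS replicate 2, 16 without term replicate 3 and 11 without term replicate 2. It was 6 without fetal end replicate 2, 5 without NRS replicate 1 and 4 without fetal start replicate 2. With each of the other 8 libraries left out it was 2 or 3. With TMM-scaled library sizes in place of column totals it was 5, these 2 genes included.

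**Figure D4:**
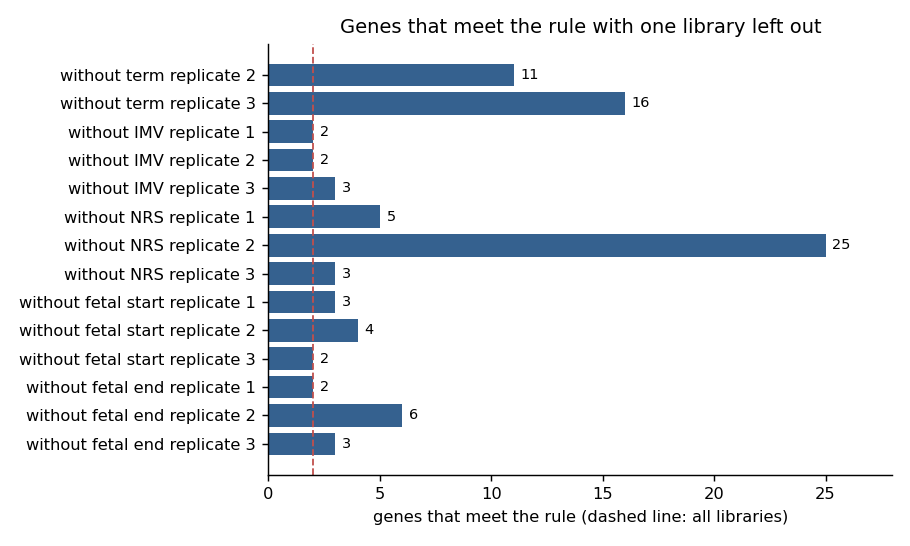
Number of genes that meet the rule (bars) when the library named on the y axis is left out, with the count of 2 from all libraries as a dashed line. The longest bars are those without NRS replicate 2 (25), term replicate 3 (16) and term replicate 2 (11).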

How the data were processed

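The deposited table holds whole-number raw counts for each Ensembl gene identifier in all 14 libraries. Per the labels' protocols, a stranded total RNA kit was used. Without giving roles, the submitters' processing notes list the build Oar_v3.1 and DESeq2 1.22.2, featureCounts 1.6.3, STAR 2.7.0f, cutadapt 1.16, bcl2fastq and Subread. The strand setting and the handling of multi-mapping reads are not stated there, so counts of overlapping or near-identical genes are uncertain. The reference table (ARS-UI_Ramb_v3.0) holds Ensembl identifiers in 0 of 35057 rows, so 0 identifiers have a name here, and the 46 gene and marker lists and the check of the tissue by markers could not be used. The genes and lists were chosen with earlier results of these data known. Genes named are those that meet the rule.

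Groups came from sample titles. CPM used column totals. Both tests used edgeR 4.0.16 (TMM, filterByExpr with a count minimum of 10) in R 4.3.3 on all 14 libraries with 5 group means (9 residual degrees of freedom). After filtering 17069 genes remained, with Benjamini-Hochberg adjustment at 0.05. SE is the fold change over the root of F. The procedure was tried on simulated data with fold changes larger than those of these 2 genes. It therefore does not tell how often differences as small as theirs would be missed. Alternatives were RLE scaling, no filter, DESeq2 1.42.0, 2-group fits, a replicate block, other rule limits and each library left out. The identifier covariate, the identifier subset, RLE scaling of the ratio and ratios with a library left out were added after the data were seen.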

Additional observations from a re-analysis of the deposited data

Results flagged for a closer look

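ENSOARG00000003206 had 32.1 CPM in IMV replicate 1, far from the other 5 supported libraries, whose lowest was 48.2 CPM. The gap was 0.711 of the range of the 6 supported libraries, above Dixon's 95% critical value of 0.625. The library held 900 counts of this gene, with an exact 95% Poisson interval of 30.1 to 34.3 CPM. The highest and lowest libraries were checked for both genes among the supported, the fetal and all unsupported libraries, and chance marks about 1 in 20 such sets. ENSOARG00000014616 in the same library was 22.4 CPM, between the other IMV libraries.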

How the results depend on the processing

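The number of genes that meet the rule was 5 with TMM or RLE scaling of CPM, which in each case included ENSOARG00000003206 and ENSOARG00000014616. It was 0 with a ratio limit of 0.70, 11 with 0.85 and 2 with a mean CPM floor of 1 or 5. With a library left out, which loosens the demand for no overlap but can tighten the other limits, it ran from 2 to 25. Against the main ratios of 0.719 and 0.74, leaving out a library gave 0.701 to 0.768 for ENSOARG00000003206 and 0.726 to 0.757 for ENSOARG00000014616. Neither gene was called for IMV against NRS or fetal end against fetal start under any alternative. Over all genes, IMV against NRS called 0 in the main test, 81 higher and 50 lower with DESeq2, 2 higher and 0 lower in a fit of the 2 groups, and 0 to 2 higher and 0 to 1 lower with a library left out. Fetal end against fetal start called 1 higher and 0 lower in the main test, 84 and 38 with DESeq2, 0 in a fit of the 2 groups, and 0 to 4 higher and 0 to 2 lower with a library left out. For ENSOARG00000003206, IMV against NRS turned to 0.0065 without IMV replicate 1 and to 0.105 with the identifier covariate. With a library left out it ran from -0.33 to 0.0065. The cause was not tested. The other log2 fold changes of both genes kept their sign. Same-numbered libraries did not deviate together (correlations across genes from -0.152 to -0.002 for IMV and NRS and from -0.102 to -0.068 for the fetal groups). With so few libraries a group, this cannot settle whether they share more than a number. With the replicate block 0 genes were called in either comparison.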
